A study of Mus musculus with 2 samples.

Results

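Transcripts of 7 genes that move, store and sense sterols were counted cell by cell in sorted tdTomato+ spinal cord cells of mice: the efflux transporters Abca1 and Abcg1, the liver X receptors Nr1h3 (LXRα) and Nr1h2 (LXRβ), the cholesterol-esterifying enzyme Soat1, the 25-hydroxycholesterol synthase Ch25h and the lipoprotein receptor ligase Mylip. All 7 were taken by symbol from the 27998 genes of the deposited tables, and each stood under 1 identifier in both libraries. The mice were C57BL/6J and of the genotype Cx3cr1-CreER::Rosa26-tdTomato, in which 4-hydroxytamoxifen permanently labels cells that express Cx3cr1, chiefly microglia and other resident macrophages. Per the labels, every mouse received 2 injections of 1 mg at postnatal week 4. Cord tissue was collected after 4 more weeks, dissociated with collagenase and sorted for tdTomato before 10x 3′ single-cell RNA sequencing. The injured library came from cord 5 days after injection of lysolecithin, a lipid that strips myelin from axons, and the other from uninjured age-matched cord. The number and sex of the animals in either library are not given in the labels.

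Cells that engulf myelin take up large amounts of cholesterol, which mammalian cells cannot break down. Free cholesterol is handed to apolipoproteins by the transporters ABCA1 and ABCG1, or is esterified by SOAT1 (ACAT1) in the endoplasmic reticulum and kept in lipid droplets. Oxysterols, among them the 25-hydroxycholesterol made by CH25H, activate the liver X receptors, which as partners of RXR induce Abca1, Abcg1 and Mylip. The ligase MYLIP (IDOL) marks lipoprotein receptors for degradation, and 25-hydroxycholesterol also holds back the SREBP pathway of sterol synthesis.

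The injured library held 577 cells after filtering and 3095511 unique molecular identifiers (UMIs, 1 per captured transcript), and the uninjured library 695 cells and 2093084 UMIs. The median was 4396 UMIs per injured cell and 3003 per uninjured cell, and the libraries shared 0 barcodes. All 10 fixed microglial markers were detected in both libraries, with a summed level of 16228 CPM in injured and 26374 CPM in uninjured cells, where CPM scales a gene's UMIs to the total of its library. Summed markers of border-associated macrophages stood at 188 and 350 CPM and those of monocytes at 63.0 and 16.2 CPM. Of 9 monocyte markers, 6 were detected in injured and 4 in uninjured cells, and Ly6c2 was at 0 in both. The part of monocytes in the results was not tested. Each group is a single library, so differences lack any replicate check. Intervals are exact 95% intervals for counting error only, and every comparison is between these 2 libraries.

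The efflux genes Abca1 and Abcg1 and the oxysterol synthesis gene Ch25h were more abundant in the injured library, and Nr1h2 and Mylip were not. Ch25h was 44.1-fold, Abcg1 8.02-fold and Abca1 3.004-fold higher in injured cells, and Soat1 1.75-fold higher. Nr1h2 was 1.41-fold and Mylip 1.57-fold lower. Nr1h3 was nearly absent from both libraries. Of the 9066 genes with at least 20 UMIs over both libraries, 7.22% were at least 2-fold higher and 11.5% at least 2-fold lower in injured cells, and the median log2 ratio was −0.15. Other scalings raised every log2 ratio by 0.15 (TMM) or 0.19 (DESeq2 size factors), which gave 797 genes higher and 786 lower or 853 and 711, against 655 and 1044 as reported. Of the 7 genes, 6 reached 20 UMIs, Ch25h through its injured UMIs alone. Among these 6, Ch25h, Abcg1 and Abca1 were at least 2-fold higher and 0 were at least 2-fold lower under each of these 3 scalings. Without the cells that carried markers of border-associated macrophages, endothelium or oligodendrocyte precursors, the log2 ratios were 5.65 for Ch25h, 3.04 for Abcg1, 1.65 for Abca1, 0.76 for Soat1, −0.52 for Nr1h2 and −0.64 for Mylip.

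**Figure D1:**
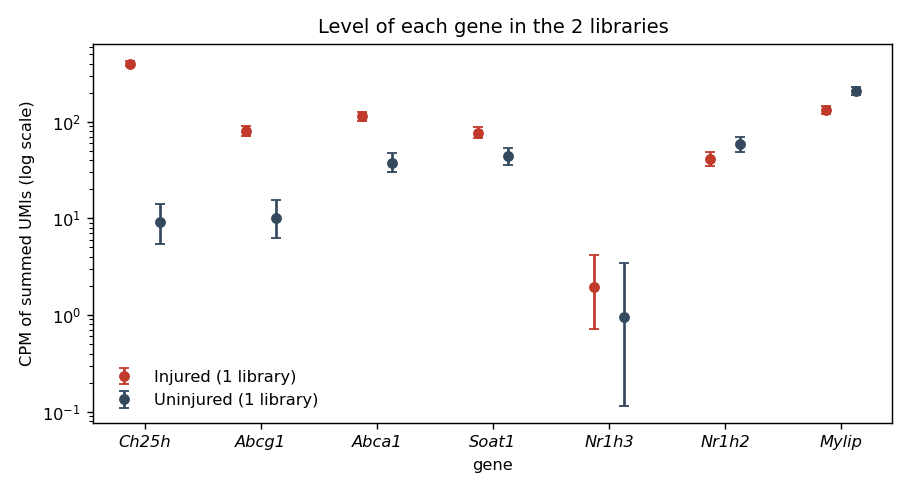
Level of each gene in CPM of summed UMIs (log scale) in the injured (left of each pair) and the uninjured library, 1 library each, with exact Poisson 95% intervals. The intervals of the libraries lie apart for Ch25h, Abcg1, Abca1, Soat1 and Mylip and overlap for Nr1h3 and, narrowly, Nr1h2.

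**Figure D2:**
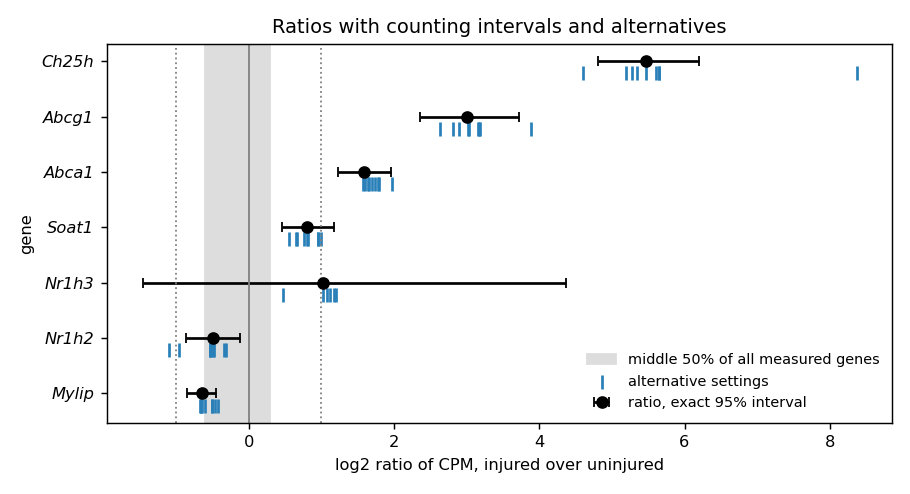
Log2 ratio of injured over uninjured CPM (black, exact 95% interval) with the values under the alternative settings as blue marks, the grey band holding the middle 50% of all measured genes (−0.61 to 0.29) and dotted lines at 2-fold. Ch25h, Abcg1 and Abca1 lie beyond the 2-fold line under every setting drawn, and Nr1h2 crosses it with every cell thinned (−1.11).

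Ch25h (ENSMUSG00000050370) is a protein-coding gene on chromosome 19 at 34473778 to 34475164 of GRCm38, minus strand, and encodes the enzyme that hydroxylates cholesterol at carbon 25. It is known as an interferon-induced gene of macrophages. The injured library held 1239 Ch25h UMIs, or 400.3 CPM (378 to 423), and the uninjured library 19, or 9.08 CPM (5.47 to 14.2). The log2 ratio was 5.46 (4.81 to 6.20), which ranked 7 among the 9066 measured genes. Gm26902, annotated on the opposite strand, overlaps the Ch25h exon and had 18 injured and 0 uninjured UMIs of its own. The sources used here do not say whether counting used strand.

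The Ch25h signal was spread unevenly over injured cells. A Ch25h UMI was seen in 243 of 577 injured cells (42.1%, 38.05 to 46.3%) and in 12 of 695 uninjured cells (1.73%, 0.895 to 2.997%). Positive injured cells held 5.10 UMIs on average, and the highest held 49. The highest uninjured cell held 4. The 34 injured cells with 10 or more UMIs carried 47.5% of the injured Ch25h UMIs, while 334 injured cells had 0. Positive injured cells were deep, with a median of 7056 UMIs against 4396 over the library. With every cell thinned at random to 1500 UMIs the shares were 22.8% (19.4 to 26.4%) of 567 injured and 1.49% (0.684 to 2.81%) of 604 uninjured cells, and the log2 ratio of the thinned sums was 4.61. Free RNA in the droplets also gives UMIs. Of 13 barcodes with endothelial or oligodendrocyte precursor markers (median 2460 UMIs), 1 of the 9 injured and 0 of the 4 uninjured ones had a Ch25h UMI. The 0 of 4 allows an uninjured background of up to 60.2%, so these barcodes were too few to set a background for the uninjured share.

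**Figure D3:**
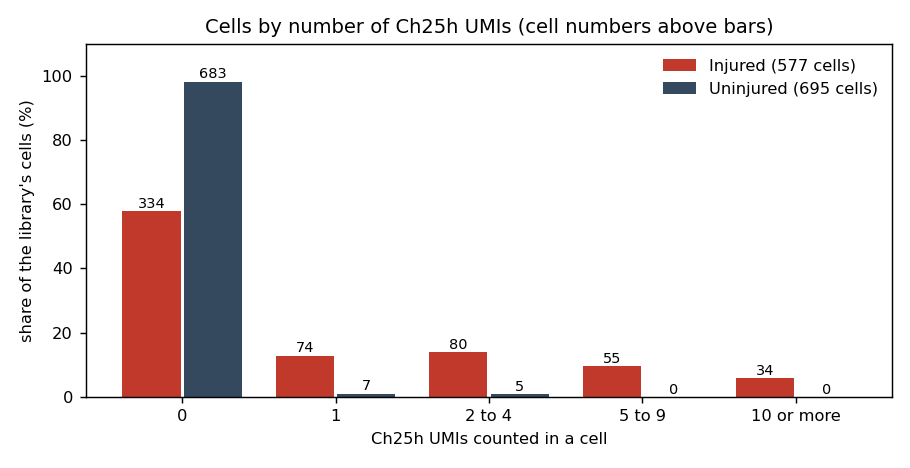
Share of cells (%, bars) by the number of Ch25h UMIs counted in a cell, for the injured (left) and uninjured library, with cell numbers above the bars. Cells with 5 or more UMIs occur in the injured library alone, 55 with 5 to 9 and 34 with 10 or more.

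Among the export genes, Abcg1 differed most. Abcg1 (ENSMUSG00000024030, chromosome 17 at 31057675 to 31117988, plus strand) encodes a transporter that passes sterols to lipoprotein particles. It had 249 injured UMIs, or 80.4 CPM (70.8 to 91.1), and 21 uninjured UMIs, or 10.03 CPM (6.21 to 15.3), a log2 ratio of 3.003 (2.36 to 3.72). It was seen in 153 of 577 injured cells (26.5%, 23.0 to 30.3%) and 19 of 695 uninjured cells (2.73%, 1.65 to 4.24%), and after thinning in 8.64% (6.46 to 11.3%) and 1.66% (0.797 to 3.02%). Of the endothelial or precursor marker barcodes, 1 of 9 injured and 0 of 4 uninjured ones had an Abcg1 UMI, again too few to set a background for each library. The highest injured cell held 9 Abcg1 UMIs, and the highest uninjured cell 2.

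Abca1 (ENSMUSG00000015243, chromosome 4 at 53030787 to 53159895, minus strand) encodes the transporter that loads cholesterol and phospholipid onto lipid-poor apolipoproteins such as APOE. It had 351 injured UMIs, or 113 CPM (102 to 126), and 79 uninjured UMIs, or 37.7 CPM (29.9 to 47.04), a log2 ratio of 1.59 (1.23 to 1.96). It was seen in 220 injured (38.1%, 34.1 to 42.2%) and 70 uninjured cells (10.1%, 7.94 to 12.6%). Unlike Ch25h in injured cells, it was counted in small numbers per cell, with at most 6 and 3 UMIs. After thinning the shares were 14.99% (12.2 to 18.2%) and 4.80% (3.24 to 6.82%). Of the marker barcodes, 0 of 9 injured and 0 of 4 uninjured ones had an Abca1 UMI.

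The upstream windows of Abca1 and Ch25h are shown because the gene best known as a direct LXR target and the gene with the largest ratio differ in the elements found there. Each is the 250 bases before the RefSeq transcript start, from the GRCm38.p6 promoter table, which held 6 of the 7 genes (Abcg1 had no entry). The sequences read 5′ to 3′ on the minus strand, the Abca1 window at chr4:53159896-53160145 and the Ch25h window at chr19:34475149-34475398. Capitals mark the match to a searched motif, in Abca1 a loosened LXR element and in Ch25h a cAMP response element.
Abca1: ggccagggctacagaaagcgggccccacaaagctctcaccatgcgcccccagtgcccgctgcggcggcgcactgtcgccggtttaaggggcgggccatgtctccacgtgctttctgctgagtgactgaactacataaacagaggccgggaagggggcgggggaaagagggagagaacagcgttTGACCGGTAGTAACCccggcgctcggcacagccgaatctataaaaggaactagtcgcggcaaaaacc
Ch25h: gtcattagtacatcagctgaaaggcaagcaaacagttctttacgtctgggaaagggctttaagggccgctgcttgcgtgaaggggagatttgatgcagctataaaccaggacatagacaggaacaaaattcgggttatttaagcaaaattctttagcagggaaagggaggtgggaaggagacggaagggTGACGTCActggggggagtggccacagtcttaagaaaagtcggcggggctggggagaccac
Liver X receptors bind 2 hexamers spaced by 4 bases (DR4). A loosened form, GGTNA followed after any 5 bases by GGTNA on either strand, was chosen with the Abca1 element already known and lay at bases −67 to −53 of Abca1. It occurred in no other window of these genes and in 0.621% of all 32851 windows. The strict form, AGGTCA repeated after any 4 bases on either strand, was in none of them and in 0.0152% of all windows. The cAMP response element TGACGTCA, which reads the same on both strands, lay at bases −61 to −54 of Ch25h, in no other window of these genes and in 1.55% of all windows. The sterol response element, TCACNCCAC on either strand, was in none of these genes' windows and in 1.05% of all. A match describes the letters and not the binding of a factor.

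Soat1 (ENSMUSG00000026600, chromosome 1 at 156424525 to 156474331, minus strand), which esterifies cholesterol for storage, was higher by less than 2-fold. It had 238 injured UMIs, or 76.9 CPM (67.4 to 87.3), and 92 uninjured UMIs, or 43.95 CPM (35.4 to 53.9), a log2 ratio of 0.81 (0.45 to 1.17). It was seen in 168 of 577 injured cells (29.1%, 25.4 to 33.0%) and in 82 of 695 uninjured cells (11.8%, 9.49 to 14.4%). After thinning, the shares were 8.99% (6.77 to 11.7%) and 6.62% (4.77 to 8.91%), and their intervals overlap.

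Of the receptor genes, Nr1h2 stood slightly lower in injured cells and Nr1h3 was too rare to compare. Nr1h2 (ENSMUSG00000060601, chromosome 7 at 44549616 to 44553951, minus strand), the broadly expressed LXRβ, had 128 injured UMIs, or 41.4 CPM (34.5 to 49.2), and 122 uninjured UMIs, or 58.3 CPM (48.4 to 69.6). Its log2 ratio was −0.50 (−0.86 to −0.13), with an upper bound just below 0. With the other scalings the ratio was −0.35 and −0.31, within the interval. It was −1.11 with every cell thinned, from 24 injured and 55 uninjured UMIs, and −0.97 in cells with Y-linked UMIs alone. From the mean over cells of each cell's CPM it was −0.54. An Nr1h2 UMI was seen in 111 of 577 injured cells (19.2%, 16.1 to 22.7%) and 109 of 695 uninjured cells (15.7%, 13.1 to 18.6%), and after thinning in 4.23% (2.73 to 6.23%) and 8.44% (6.35 to 10.95%). Thinned to 1000 UMIs, the shares were 4.16% (2.68 to 6.13%) and 5.93% (4.27 to 7.99%), with overlapping intervals. Nr1h2 was also in 2 of 9 injured and 1 of 4 uninjured endothelial or precursor marker barcodes, cell types that are known to express it. Nr1h3 (ENSMUSG00000002108, chromosome 2 at 91184061 to 91202834, minus strand), the LXRα of macrophages and liver, had 6 injured and 2 uninjured UMIs, each in a cell of its own, or 1.94 and 0.956 CPM. The log2 ratio of these counts was 1.02 with an interval of −1.46 to 4.36, so a difference in Nr1h3 was not detectable at this depth.

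Mylip (ENSMUSG00000038175, chromosome 13 at 45389742 to 45412022, plus strand), although known as an LXR target, was lower in injured cells. It had 410 injured UMIs, or 132 CPM (120 to 146), and 435 uninjured UMIs, or 208 CPM (189 to 228), a log2 ratio of −0.65 (−0.85 to −0.45). With TMM and DESeq2 scaling the ratio was −0.50 and −0.46. A Mylip UMI was seen in 257 of 577 injured cells (44.5%, 40.4 to 48.7%) and 274 of 695 uninjured cells (39.4%, 35.8 to 43.2%), an order opposite to that of the CPM because injured cells were deeper. After thinning the shares were 18.5% (15.4 to 21.97%) and 26.8% (23.3 to 30.5%). Its UMIs were spread over cells in both libraries, with at most 5 in an injured and 6 in an uninjured cell.

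To see where in the libraries these genes were counted, cells of both were clustered together on other genes, with the 7 genes, the pathway lists, and sex-linked and mitochondrial genes left out. The 10 clusters are given by number. Clusters 6, 7 and 8 carried the fixed markers of interferon-responsive, dividing and border-associated macrophage cells and are called interferon-responsive-like, dividing-like and border-associated macrophage-like. Summed monocyte markers stood at 371 CPM in cluster 6, with 3 of 9 detected, against 29.8 CPM in all other cells. In cluster 8 they stood at 322 CPM, with 4 of 9 detected, against 37.3 CPM. Cluster 2, led by Igf1, Fn1 and Lilr4b, held 174 injured and 2 uninjured cells, with a median of 7678.5 UMIs per injured cell, and cluster 3 held 3 injured and 172 uninjured cells. The leading genes of cluster 3, Cldn5, Itm2a and Slco1a4, are endothelial markers. All 10 microglial markers were also detected in it, at a summed 32657 CPM against 18946 CPM in all other cells, and it stays unnamed. At a higher resolution 1 injured and 4 uninjured endothelial-like barcodes formed a cluster of their own. Summed endothelial markers stood at 41265 CPM in that small cluster, against 1336 CPM in cluster 3. Clusters 0 (led by Hbegf, Ddit4 and Rnd1), 1 (Tnfrsf12a, Rrad and Il1a), 4 (Lgals3, Ptgds and Lepr) and 5 (Fabp4, Kdm6b and Zfp691) held at least 20 cells of each library. Levels were compared over the 12 library-by-cluster sums of at least 20 cells. With 1 library per group, a cluster held mostly by 1 library may stand for that library.

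Ch25h was highest in the 37 injured cells of interferon-responsive-like cluster 6, at 1312 CPM (1162 to 1476), clear of the next level. Injured cells of dividing-like cluster 7, at 537 CPM (443 to 644), and of cluster 2, at 536 CPM (498 to 576), came next and did not differ beyond their intervals. Injured cells of clusters 4, 5, 1 and 0 followed, at 137, 116, 83.2 and 45.8 CPM, each overlapping its neighbour. Below them lay the uninjured cells of clusters 1 (44.3 CPM, from 3 UMIs), 0 (6.74 CPM) and 3 (1.96 CPM), and uninjured clusters 4 and 5 had 0 UMIs. Cluster 2 held 59.3% of the injured Ch25h UMIs and cluster 6 held 22.4%, of which 107 of 277 UMIs came from 3 cells. Of the 3095511 injured UMIs of all genes, these clusters held 1371152 and 211170. Without cluster 6 the log2 ratio between the libraries was 5.19.

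Abcg1 shared the interferon-responsive-like cluster as its highest level, at 218 CPM (159 to 291), above the 89.7 CPM (74.6 to 107) of injured cluster 2. Of its 46 UMIs in cluster 6, 22 came from 3 cells. All 7 injured sums, down to 35.7 CPM in cluster 5, stood above the highest uninjured one, 29.6 CPM in cluster 5, but neighbours below cluster 2 overlapped in their intervals. Without cluster 6 the log2 ratio was 2.81.

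Abca1 had another order. Its highest level was in injured cluster 2, at 148 CPM (128 to 170), and the interferon-responsive-like and dividing-like cells stood lower, at 71.0 (39.8 to 117) and 64.8 CPM (35.4 to 109). The 7 injured sums ran down to 54.9 CPM in cluster 4, and the 5 uninjured sums from 44.3 down to 25.5 CPM, each overlapping its neighbour. Cluster 2 held 57.8% of the injured Abca1 UMIs, beside 1371152 of the 3095511 injured UMIs of all genes.

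Soat1 ran from 82.4 CPM in injured cluster 4 to 14.8 CPM in uninjured cluster 1 (1 UMI), with every neighbour in the order overlapping. Nr1h2 ran from 73.8 CPM in uninjured cluster 1 to 9.25 CPM (1.12 to 33.4; 2 UMIs) in the injured dividing-like cells, again with every neighbour overlapping. Mylip was highest in cluster 0 of the injured library (321 CPM, 242 to 417) and cluster 5 of the uninjured one (315 CPM, 243 to 403), and lowest in injured cluster 4 (54.9 CPM, 30.0 to 92.2). Each of its neighbours overlapped.

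In each of the 4 clusters with at least 20 cells of both libraries, Abca1 and Ch25h stood higher in the injured cells, although for Abca1 the interval lay above 0 in clusters 0 and 5 only. In cluster 0, with 52 injured and 385 uninjured cells, Abca1 stood at 97.4 and 40.5 CPM (log2 1.27, 0.38 to 2.09), Abcg1 at 57.3 and 5.06 CPM (log2 3.502, 1.90 to 5.25) and Ch25h at 45.8 and 6.74 CPM (log2 2.77, 1.15 to 4.38). Soat1 and Nr1h2 there had intervals that included 0, at 0.97 (−0.04 to 1.89) and −0.25 (−1.44 to 0.75). Mylip, at 321 and 249 CPM, had a log2 ratio of 0.37 (−0.07 to 0.78), opposite in sign to that over all cells and not distinguishable from 0. In cluster 5, with 30 and 61 cells, Abca1 was at 107 and 34.5 CPM (log2 1.63, 0.17 to 3.22). Abcg1 had 4 and 6 UMIs there and a log2 ratio of 0.27 (−1.997 to 2.35), and Soat1, with 5 and 15 UMIs, a ratio of −0.73 (−2.54 to 0.80). In clusters 1 and 4, Abcg1 had 29 and 13 injured UMIs against 0 uninjured ones. With the uninjured 0 set to a floor of 3 counts, it was 1.05-fold and 1.15-fold higher. The exact lower limits of these log2 ratios, −0.32 and −0.31, lay below 0. Ch25h had 13 injured and 0 uninjured UMIs in cluster 5, and 35 and 0 in cluster 4. Against the same floor it was 7.85-fold and 3.08-fold higher in injured cells, with exact lower log2 limits of 2.46 and 1.25. In cluster 1, with 23 uninjured cells, the ratios of Abca1, Nr1h2, Soat1, Ch25h and Mylip had intervals that included 0.

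**Figure D4:**
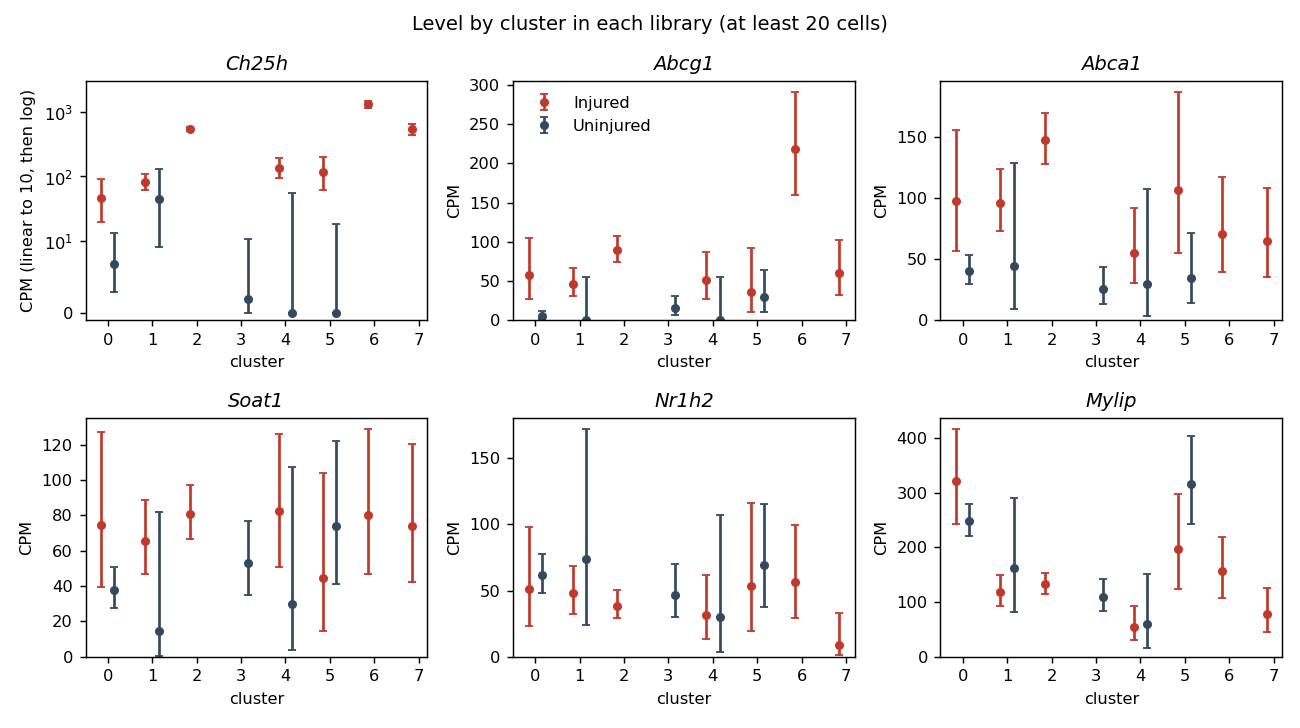
CPM of 6 genes by cluster in injured (left of each pair) and uninjured cells, for library-by-cluster sums of at least 20 cells, with exact Poisson 95% intervals (the Ch25h axis is linear to 10 CPM and log above). Ch25h and Abcg1 are highest in injured cluster 6 (1312 and 218 CPM) and Abca1 in injured cluster 2 (148 CPM), while the Mylip levels of the libraries interleave.

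Over these 12 sums, Pearson's r of log2(CPM + 10) was 0.79 between Ch25h and Abcg1, 0.71 between Ch25h and Abca1, 0.65 between Abca1 and Abcg1 and 0.86 between Abcg1 and Soat1. Mylip and Nr1h2 had an r of 0.69 with each other and of −0.20 and −0.35 with Ch25h. These values are descriptive, since the sums share 2 libraries and differ in depth. Among 2854 genes with at least 200 UMIs, the profiles most like that of Ch25h were those of Cybb (r 0.954), Lilrb4a (0.953) and Cd72 (0.947). For Abca1 they were Sdcbp (0.879), Slc31a1 (0.856) and Rilpl2 (0.853), and for Abcg1 Nrp1 (0.91), Tor1aip2 (0.902) and Tpp1 (0.899). For Soat1 they were Milr1 (0.922), Cript (0.914) and Hist1h2bc (0.908), for Nr1h2 Ehbp1l1 (0.918), Tcp11l2 (0.916) and Man1a (0.905), and for Mylip Ubap2l (0.948) and Gadd45b (0.938).

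Within the injured library, co-detection of Ch25h, Abca1 and Abcg1 was compared at equal depth. Of the 129 thinned cells with a Ch25h UMI, 20 also had an Abca1 UMI (15.5%, 9.73 to 22.9%), against 65 of the 438 without Ch25h (14.8%, 11.6 to 18.5%). Abcg1 was seen in 12 of the 129 (9.30%, 4.90 to 15.7%) and in 37 of the 438 (8.45%, 6.02 to 11.5%). Of the 49 thinned cells with an Abcg1 UMI, 12 had an Abca1 UMI (24.5%, 13.3 to 38.9%), against 73 of the 518 without (14.1%, 11.2 to 17.4%). All of these pairs of intervals overlap, which does not exclude a difference, and at 1500 UMIs per cell most transcripts of these genes go uncounted.

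Cells with X-inactivation or Y-linked transcripts were unevenly split between the libraries. Xist UMIs without Y-linked ones were found in 213 injured and 6 uninjured cells, and Y-linked UMIs without Xist in 147 and 235. In cells with Y-linked UMIs alone the log2 ratios were 5.34 for Ch25h, 2.89 for Abcg1, 1.98 for Abca1, 0.65 for Soat1, −0.97 for Nr1h2 and −0.43 for Mylip. Within the injured library, Ch25h stood at 518 CPM (478 to 560) in the cells with Xist alone and 352 CPM (313 to 395) in those with Y-linked UMIs alone. These intervals lie apart, but they cover counting error only and not the spread between cells or animals, which is wide for Ch25h over cells. Abca1 stood at 125 and 117 CPM, Abcg1 at 95.7 and 83.2, Soat1 at 70.4 and 78.3, Nr1h2 at 45.8 and 31.8 and Mylip at 136 and 147, all with overlapping intervals. How many animals these cells stand for is not given in the labels.

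The wider sterol pathway was read from 6 lists of other genes. A gene could reach the minimum of 20 UMIs through 1 library alone. Of 17 measured efflux partners and lipoprotein targets of LXR, 5 were at least 2-fold higher and 4 at least 2-fold lower, with a median log2 ratio of 0.14, beside 7.22% and 11.5% and a median of −0.15 over all measured genes. The apolipoprotein gene Apoc1 had a log2 ratio of 4.74 (3.84 to 5.81), from 394 injured and 10 uninjured UMIs. Apoc4, another apolipoprotein gene, was at 3.59 (2.31 to 5.25), from 89 injured and 5 uninjured UMIs. Both reached the minimum through their injured UMIs alone. The lipase gene Lpl and Apoe, which encodes the main acceptor of exported sterol in the nervous system, were at 3.17 and 2.90. Their uninjured levels rested largely on few cells. The 10 cells with most UMIs of the gene held 64.3% of the uninjured Lpl and 47.0% of the uninjured Apoe UMIs, against 17.6% and 11.5% of the injured ones. In cells with Y-linked UMIs alone the median of this list was 0.89. The 4 genes at least 2-fold lower were Mlxipl (−1.25), which encodes a glucose-responsive regulator of lipid synthesis, Nrip1 (−1.18), a nuclear receptor corepressor, Rxrb (−1.04), a partner of LXR, and the transporter gene Abca7 (−1.15), from 8 and 12 UMIs. The fatty acid synthesis regulator gene Srebf1, itself an LXR target, had 30 and 14 UMIs and a ratio of 0.53 (−0.42 to 1.56), and the phospholipid remodelling gene Lpcat3 was at −0.54 (−0.84 to −0.24). These last 6 were named after their values were seen.

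Of 19 measured genes of endolysosomal sterol release and transport, 4 stood 2-fold or more above and 2 as far below the uninjured level. Over all measured genes these shares were 7.22% and 11.5%. The median of the list was 0.29. Osbpl8, an oxysterol-binding protein of the endoplasmic reticulum, was at 1.304 (0.62 to 2.04), and Tspo, a mitochondrial outer membrane protein that binds cholesterol, at 1.28 (1.11 to 1.44). Lipa, the acid lipase that frees cholesterol from lipoprotein esters in lysosomes, was at 0.803 (0.54 to 1.07) from 418 and 162 UMIs. Gramd1a, which carries sterol between the plasma membrane and the endoplasmic reticulum, was at −0.79 (−1.11 to −0.48).

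Of 12 measured genes of sterol ester storage and hydrolysis, 3 stood 2-fold or more above and 1 as far below the uninjured level. The shares over all measured genes were 7.22% and 11.5%. The median of the list was −0.305, which was 0.01 with every cell thinned. This median lies between Acat1 (−0.40) and Acat2 (−0.21), which encode acetyl-CoA acetyltransferases and not the esterifying enzymes. Both count among the 12, and Acat2 is also in the SREBP2 list. The lipid droplet coat genes Plin2 and Plin3 were at 3.86 (3.51 to 4.23) and 1.31 (0.70 to 1.97), and Nceh1, a hydrolase of cholesterol esters in macrophages, at 1.87 (1.17 to 2.64) from 108 and 20 UMIs. Lipe, the hormone-sensitive lipase, was at −1.22 (−1.65 to −0.79) from 77 and 121 UMIs. Soat2, the esterifying enzyme of gut and liver, chosen here as the counterpart of Soat1, had 10 UMIs in each library.

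Among 5 measured oxysterol genes other than Ch25h, 3 were below the uninjured level by 2-fold or more and 0 above it by as much, beside 11.5% and 7.22% of all measured genes, and the median was −1.06. Cyp27a1, which makes 27-hydroxycholesterol, had 18 injured and 50 uninjured UMIs, or 5.81 and 23.9 CPM (log2 −2.04, −2.90 to −1.24). Gpr183, the receptor for a dihydroxysterol made from the CH25H product, had 211 and 297 UMIs, or 68.2 and 142 CPM (log2 −1.06, −1.32 to −0.80). The sterol-sensing genes Insig1 and Insig2 were at −1.32 and −0.32 (−0.69 to 0.04). The oxysterol-binding protein gene Osbpl1a, the only other measured gene of this list, was at 0.10 (−0.83 to 1.07) and is given after its value was seen. With the TMM and DESeq2 scalings 2 of the 5 stayed at least 2-fold lower.

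Of 19 measured genes of the SREBP2 pathway of sterol synthesis, 4 were 2-fold or more below the uninjured level and 0 as far above. Over all measured genes the shares below and above were 11.5% and 7.22%. The median of the list was −0.36, which was −0.69 without the cells that carried markers of other cell types. Sc5d and Msmo1, enzymes of late sterol synthesis, were at −1.13 and −0.82, Cyp51 at −0.51 (−1.06 to 0.04) and Pmvk, an early mevalonate enzyme, at 0.27 (−0.24 to 0.79). Of 12 measured uptake receptors, 3 stood 2-fold or more above and 1 as far below the uninjured level, and the median was 0.295. Over all measured genes the shares above and below were 7.22% and 11.5%. The scavenger receptor genes Msr1 and Cd36 were at 3.89 and 2.61, from 198 and 9 and from 81 and 9 UMIs. The other gene above, Olr1, named after its value was seen, had 23 and 4 UMIs. All of these reached the 20 UMI minimum through their injured UMIs alone. Scarb1, a receptor for high-density lipoprotein, was at 0.73 (0.20 to 1.28), and the endosomal glycoprotein gene Cd68 at 0.77 (0.68 to 0.86).

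**Figure D5:**
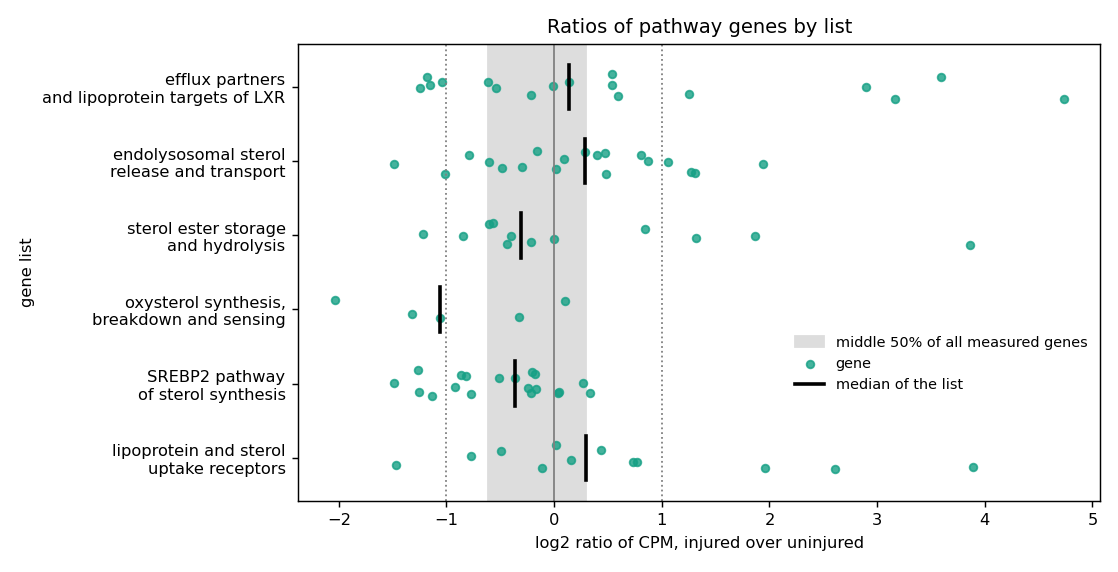
Log2 ratio of injured over uninjured CPM for each measured gene (dots, vertical scatter without meaning) of the 6 pathway lists, with the median of each list (black bar), the middle 50% of all measured genes (grey) and dotted lines at 2-fold. The oxysterol list has the lowest median (−1.06), and 4 genes of the LXR list lie above 2.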

How the data were processed

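UMI counts per gene and cell were used as deposited by the authors, 580 injured and 705 uninjured barcodes. The submitters' processing notes name STAR, Cell Ranger 2.0.1, Seurat 2.1.0, GRCm38.p5 and mm10. The sources used here do not state the annotation, cell filters or use of strand. Cells with at least 200 genes and at most 10% mitochondrial UMIs were kept. UMIs were summed per library and scaled to CPM, and ratios carry exact 95% intervals of 2 Poisson counts. The calculation was tested on simulated data. Per the labels' protocols, scatter gates removed doublets at the sort. No doublet caller was run, so doublets formed in the droplets were not tested, including in clusters 2 and 7, whose injured cells had medians of 7678.5 and 7177.5 UMIs.

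Cells were clustered with Leiden (leidenalg 0.10.2) on 2000 variable genes, 20 components and 15 neighbours at resolution 0.8. Endothelial-like barcodes separated at resolution 1.2 only. Scaling alternatives used edgeR 4.0.16 (TMM) and DESeq2 1.42.0, with R 4.3.3. Other steps used Python 3.11.15, scipy 1.17.1 and scikit-learn 1.9.0.

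The genes and lists were chosen with earlier results of these data known. From each list, up to 4 measured genes with at least 50 UMIs in 1 library and the largest absolute log2 ratio were named. For each of the 6 genes with at least 100 UMIs, the 3 genes with the highest correlation of profile were named, leaving out mitochondrial, ribosomal protein, Rik and numbered Gm genes. One gene that this rule gives for Mylip is not reported here.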

Additional observations from a re-analysis of the deposited data

How the results depend on the processing

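The ratios of the 7 genes kept their sign under each alternative that gave a value. No paired analysis was possible because each group is 1 library, and for the same reason no replicate could be left out. Over all settings the log2 ratio ran from 4.61 (every cell thinned) to 8.37 (without the 10 cells of each library with most UMIs of the gene, which left 2 uninjured UMIs) for Ch25h, from 2.63 to 3.88 (without such cells) for Abcg1, from 1.57 to 1.98 (cells with Y-linked UMIs alone) for Abca1 and from 0.55 to 0.99 for Soat1. For Nr1h2 it was −1.11 with cells thinned and −0.97 in cells with Y-linked UMIs alone, and for Mylip −0.43 in those Y-linked cells. Nr1h3 gave no ratio with thinned cells, with Y-linked cells or without its 10 highest cells, as too few UMIs were left. The share of cells with a UMI moved with depth, and the cause of the other shifts was not tested. Thinned to 1000 UMIs, injured and uninjured shares were 11.3% and 3.12% for Abca1, 5.20% and 4.60% for Soat1 and 11.96% and 18.5% for Mylip; Ch25h had 17.3% and Nr1h3 0% of injured cells, Abcg1 0.742% and Nr1h2 5.93% of uninjured cells. Thinned to 2500 UMIs, they were 18.3% and 8.23% for Abca1, 15.6% and 3.03% for Abcg1, 9.53% and 13.9% for Nr1h2, 14.0% and 10.8% for Soat1 and 26.3% and 37.4% for Mylip, and 33.1% of injured cells for Ch25h. At the higher clustering resolution the highest level of Soat1 was 142.8 CPM, in 24 injured cells of the cluster led by H2-Eb1, H2-Aa and H2-Ab1. That of Mylip was 454.9 CPM, in a cluster with 20 injured cells. Counts of list genes at least 2-fold lower ran from 1 to 6 for the LXR list, 0 to 2 for the endolysosomal list, 0 to 3 for storage, 2 to 5 for oxysterols, 1 to 4 for SREBP2 and 0 to 1 for uptake, and counts at least 2-fold higher from 4 to 6, 2 to 5, 3 to 4, 0 to 1, 0 to 1 and 1 to 4. The median of the storage list, −0.305 as reported, turned positive with cells thinned (0.01), in the Y-linked cells (0.07) and, at 0.00024, with a minimum of 100 UMIs. Medians ran from 0.06 to 0.89 for the LXR list, 0.16 to 0.48 for the endolysosomal list, −1.28 to −0.87 for oxysterols, −0.69 to −0.18 for SREBP2 and 0.22 to 0.73 for uptake.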

Other observations

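The border-associated macrophage-like cluster, led by the antigen presentation genes H2-Eb1, H2-Aa and H2-Ab1, held 18 injured and 9 uninjured cells, too few for the comparison by cluster. Abca1 stood there at 166 CPM (93.0 to 274, from 15 UMIs) in injured and 147 CPM (47.7 to 343, from 5 UMIs) in uninjured cells. Ch25h had 2 UMIs in each library there, or 22.2 CPM (2.68 to 80.05) in injured and 58.7 CPM (7.11 to 212) in uninjured cells. Soat1 had 13 injured and 0 uninjured UMIs, or 144 CPM (76.7 to 246) in injured cells. That lay above its highest level in the comparison by cluster, 82.4 CPM (51.0 to 126) in injured cluster 4, with overlapping intervals. Of the 6 injured Nr1h3 UMIs, 2 lay in these 18 cells, and 0 of the 2 uninjured ones in the 9.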
